A study of Mus musculus with 18 samples.

Results

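Gene expression was compared between mouse embryonic fibroblasts (MEFs) given the transcription factor genes *Tal1* (also called *Scl*) and *Lmo2*, named SL, and untreated fibroblasts, named uFIB, after 12 and 21 days. These are 4 of the 18 RNA-seq samples of a study of how blood arises from embryonic stem cells, 8 of which came from fibroblasts. The question was which blood lineages SL cells gained and which functions of fibroblasts they lost. Values were FPKM, read counts scaled to the length of the transcript and to the number of aligned reads, as deposited for each library. The change of a gene was the difference of log2(FPKM + 1), SL minus uFIB of the same day, on which low genes show less change than their FPKM ratio. Of 20268 gene names in the table, 12001 had a mean of at least 1 FPKM over the 4 libraries and were tested, without *Tal1* and *Lmo2*. This mean includes SL, so a gene hardly present in uFIB can pass through SL alone and is then likely to count as higher. A gene was called only when both days agreed in direction with a change of at least 1, that is 2-fold on this scale. Of the genes tested, 1238 (10.3%) were higher in SL and 1061 (8.84%) were lower. Both shares are the background for each count of list members called higher or lower below. For genes that passed through SL alone they are no matched background.

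All 4 libraries carry the strain label 129, and the cells came from embryos at embryonic day 14.5. Sorting had removed MEFs with CD45, CD41, CD31 or CD117 before reprogramming, *Lmo2* was delivered with a lentiviral vector, and *Tal1* could be induced with doxycycline in cells of iTal1-2A-GFP mice, which carry rtTA and a TRE-TAL1 cassette. The labels name wild type MEFs beside the iTal1-2A-GFP MEFs and do not say which library used which. Reprogrammed cells were kept in a hematopoietic medium with KIT ligand, IL3, GM-CSF, thrombopoietin, erythropoietin, M-CSF, IL6 and IL11. The study describes the sequenced SL cells as hematopoietic cells that arose by reprogramming; how they were collected, and whether uFIB received this medium, is not given in the sources used here. Factor and medium can therefore not be told apart if they differed.

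With 1 library for each treatment and day, a single day has no replicate check. The days were used as a block in limma, in which the spread of a gene is the difference between the changes of the days (1 residual degree of freedom for each gene, with a median prior of 2.51 from all genes). At an adjusted p of at most 0.05 this gave 2143 genes higher in SL (17.9%) and 2216 lower (18.5%), which included 1233 of the 1238 and 1052 of the 1061 genes called on both days. limma used the same values as the calls. This overlap, and the adjusted p-values given below for genes called, are therefore no separate support. The labels do not say whether the days are separate cultures, and the p-values then measure only the spread between these libraries. The 4 Y-linked genes with values, such as *Ddx3y*, lay between 5.28 and 35.7 FPKM in both libraries of day 12 and at or below 0.0244 FPKM in both libraries of day 21, so that both libraries of a day carried them or neither did. The cells of day 12 and day 21 were thus not the same mix for these genes. Differences between the days given below cannot be told apart from differences in the cells used. The number of reads is not part of the unit; the steps between low values put the depth at 1.56 times that of uFIB of day 12 in SL of day 12, at 1.43 in uFIB of day 21 and at 0.607 in SL of day 21. The median change of all genes tested was -0.03 on day 12 and -0.04 on day 21.

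As a check of the labels, *Tal1* had 0.0414 and 0.415 FPKM in uFIB and 62.0 and 347 FPKM in SL on days 12 and 21, and *Lmo2* had 0.499 and 2.28 FPKM in uFIB and 57.0 and 150.5 FPKM in SL. *Gata2* and *Fli1*, hematopoietic factors that the names of these libraries do not list, also rose: *Gata2* with a change of 4.64 on day 12 and 4.34 on day 21 and *Fli1* with a change of 3.43 on day 12 and 3.14 on day 21. These values do not separate vector from endogenous transcripts. Defining genes of fibroblasts were high in uFIB, with *Col1a1*, a chain of type I collagen, at 2409 and 1609 FPKM and *Thy1*, a surface marker of fibroblasts, at 249 and 175 FPKM on days 12 and 21.

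TAL1 is a basic helix-loop-helix protein and LMO2 a bridging protein with LIM domains. In blood precursors they sit in a complex with LDB1 and GATA factors, which binds DNA where a CTG site, part of an E-box, lies a short distance from a GATA site, and both are required for the onset of blood formation in the embryo. TAL1 remains active in red cells, megakaryocytes and mast cells, and is turned off in most lymphocytes. Embryonic fibroblasts are mesenchymal cells that lay down collagen and other matrix, hold it under tension through a contractile actin cytoskeleton, and can become fat, cartilage or bone cells.

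The genes called higher made up 2.61% and 2.72% of all FPKM in uFIB on days 12 and 21 and 23.7% and 17.6% in SL, whereas the genes called lower made up 19.3% and 20.4% in uFIB and 4.89% and 4.79% in SL. Both sets were picked by these same values, so the direction of these shares was fixed by the choice. Gains were larger than losses. At 4-fold or more on both days 525 genes were higher and 132 lower, and at 16-fold or more 144 were higher and 0 lower. Of these 144 genes, 121 had the larger change on day 12, and of the 132 genes that fell 4-fold or more, 111 fell further on day 21. Among all genes called, 945 of 1238 rose more on day 12, and 622 of 1061 fell further on day 21. In a bulk library, fewer cells of a type and less RNA per cell cannot be told apart, for the fibroblast genes as for the blood genes.

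**Figure D1:**
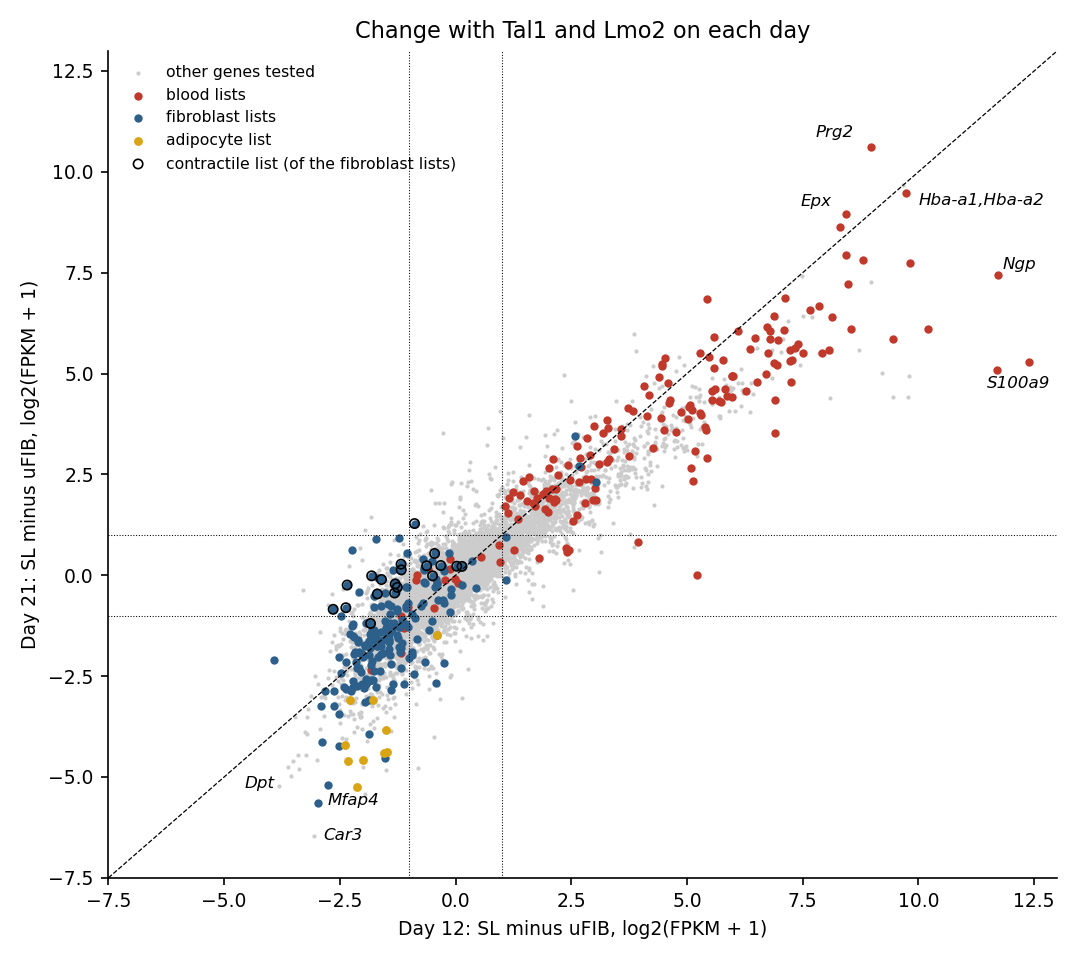
Change on log2(FPKM + 1), SL minus uFIB, of the 12001 genes tested on day 12 (x axis) and day 21 (y axis). Points are genes, colored by the lists they belong to, dotted lines mark a change of 1, the dashed line marks equal change; most blood genes lie at the upper right, most fibroblast genes at the lower left, adipocyte genes below the dashed line and contractile genes (open circles) above it.

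The 15 genes with the largest rise, ranked by the smaller change of the 2 days, were *Beta-s*, *Hba-a1,Hba-a2*, *Prg2*, *Epx*, *Hbb-b1,Hbb-b2*, *Mcpt8*, *Mpo*, *Camp*, *Ngp*, *Cd24a*, *Pglyrp1*, *Ctsg*, *Prss34*, *Retnlg* and *Csf2rb*. They are genes of red cells, eosinophils, basophils and neutrophils, with *Cd24a*, a surface protein of red cell and granulocyte precursors, *Pglyrp1*, a granule protein of neutrophils that binds peptidoglycan, and *Csf2rb*, the common beta chain of the IL3 and GM-CSF receptors.

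**Figure D2:**
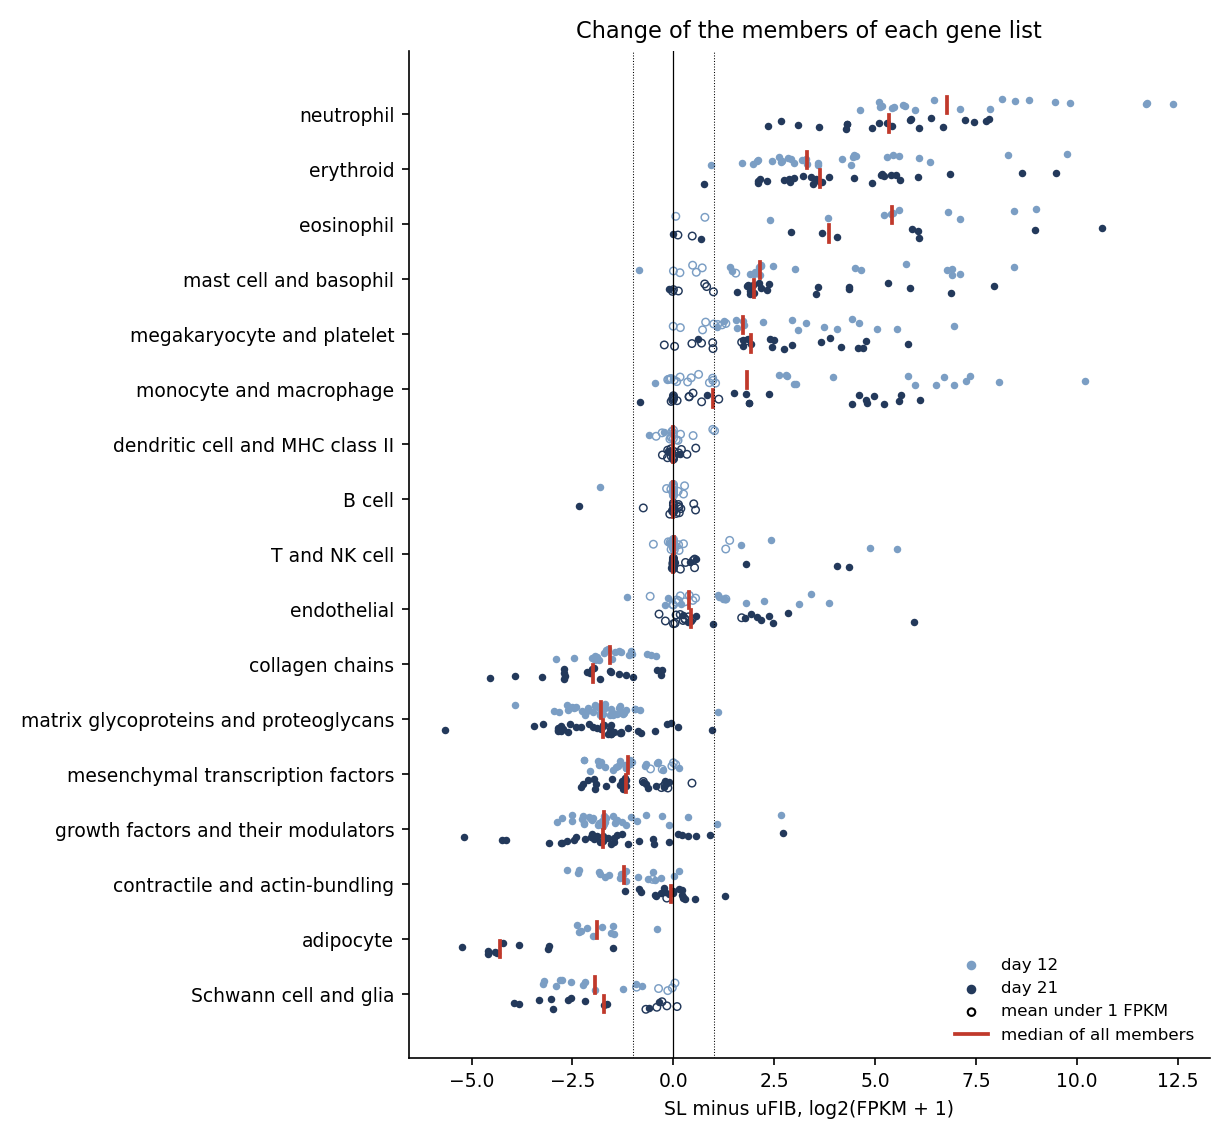
Change on log2(FPKM + 1), SL minus uFIB, of each member of 17 gene lists on day 12 (light) and day 21 (dark). Open points are members with a mean under 1 FPKM, red bars are medians over all members; neutrophil and red cell genes lie to the right on both days, lymphoid and MHC class II genes around 0, and matrix and adipocyte genes to the left.

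Red cell genes rose as a group. Of 32 erythroid genes listed, 29 were in the table, all 29 passed the filter on low values and 28 were called higher, against 10.3% of all genes tested. Members at or near 0 in uFIB passed the filter only through SL, so the 10.3% is no matched background for them. The median change was 3.32 on day 12 and 3.63 on day 21. The exception was *Fech*, the last enzyme of heme synthesis, with a change of 0.93 on day 12 and 0.76 on day 21. Adult globins were listed at 0 or close to it in uFIB: the alpha globin locus *Hba-a1,Hba-a2* had 0 FPKM in both uFIB libraries and 855 and 706 FPKM in SL on days 12 and 21, *Hbb-b1,Hbb-b2* had 0 in both uFIB libraries and 313 and 394 FPKM in SL, and *Beta-s* had 0.127 and 0 FPKM in uFIB and 917 and 820 FPKM in SL. The near-identical copies of these loci can share reads, so that their separate levels are uncertain, and only unique alignments were kept. Globins of the embryo, made by the first red cells of the yolk sac, were present at lower levels: *Hba-x* (zeta) had 42.5 and 115 FPKM in SL, *Hbb-bh1* 21.96 and 44.9 FPKM and *Hbb-y* (epsilon) 21.1 and 35.2 FPKM on days 12 and 21, all at 0 or at most 0.0949 FPKM in uFIB. These 3 embryonic globins were higher on day 21 than on day 12 in SL, as was *Hbb-b1,Hbb-b2*, while *Hba-a1,Hba-a2* and *Beta-s* were not. Whether this goes with time or with the cells used cannot be told apart.

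*Klf1*, the factor that drives adult beta globin, had 0.123 and 0.115 FPKM in uFIB and 23.6 and 40.7 FPKM in SL. Its change was 4.45 on day 12 and 5.22 on day 21, 4.84 ± 0.25 over both days (SE, limma, adjusted p = 0.0103). *Gata1*, the main red cell GATA factor, had 0 and 0.0225 FPKM in uFIB and 19.9 and 29.9 FPKM in SL, and *Slc4a1*, the anion exchanger band 3 of the red cell membrane, had 0.0126 and 0 FPKM in uFIB and 68.0 and 65.4 FPKM in SL. In each of these genes both SL libraries lay above both uFIB libraries, which held for 36.1% of all genes tested (in 40.1% both lay below). They were named from members called higher by the same values, so this is no separate support. Membrane genes rose, among them *Rhag* (the Rh-associated glycoprotein, change of 4.19 on day 12 and 4.46 on day 21), *Kel* (the Kell antigen, at 0 in uFIB and at 8.16 and 10.5 FPKM in SL) and the spectrin gene *Sptb* (change of 2.43 on day 12 and 2.73 on day 21). *Tfrc*, the transferrin receptor through which red cell precursors take up iron, had 1.78 and 2.81 FPKM in uFIB and 32.1 and 40.7 FPKM in SL. Of the 11 enzymes and carriers of heme synthesis, a list added after the values were seen, 5 rose and 0 fell, among them *Alas2*, the red cell form of the first enzyme, with a change of 5.59 on day 12 and 5.13 on day 21, *Cpox* with a change of 1.97 on day 12 and 3.21 on day 21, *Alas1* with a change of 2.42 on day 12 and 1.58 on day 21 and the mitochondrial transporter *Abcb10* with a change of 1.73 on day 12 and 1.71 on day 21.

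Neutrophil genes had the highest summed level of all 34 lists in both SL libraries. All 20 members in the table passed the filter and were called higher, with a median change of 6.78 on day 12 and 5.34 on day 21, and together they made up 8.42% and 4.46% of all FPKM in SL against 0.0154% and 0.10% in uFIB. *Ngp*, a granule protein, had 2.17 and 32.5 FPKM in uFIB and 10714 and 5816 FPKM in SL on days 12 and 21. *S100a8*, a subunit of the calcium-binding protein calprotectin, had 2.97 and 126 FPKM in uFIB and 13249 and 4309 FPKM in SL, and its partner *S100a9* had 0.58 and 72.1 FPKM in uFIB and 8455 and 2841 FPKM in SL. Both SL libraries were above both uFIB libraries in all 3 genes, as in 36.1% of all genes tested, and uFIB of day 21 was above uFIB of day 12. All 3 were named from members called higher by the same values, so their place above uFIB is no separate support.

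The members cover granules that are made in sequence as neutrophils mature. Primary granule genes of promyelocytes were high, with *Mpo* (myeloperoxidase) at 582 and 359 FPKM, *Elane* (neutrophil elastase) at 497 and 294 FPKM, *Prtn3* (proteinase 3) at 618 and 448 FPKM and *Ctsg* (cathepsin G) at 378 and 509 FPKM in SL on days 12 and 21. Among secondary granule genes were *Ltf* (lactoferrin) at 712 and 271 FPKM, *Camp* (cathelicidin) at 1159 and 1116 FPKM and *Lcn2* (lipocalin 2) at 1525 and 726 FPKM. Other members were the chemokine receptor *Cxcr2* at 69.2 and 22.1 FPKM, the G-CSF receptor *Csf3r* at 35.5 and 8.48 FPKM and the secreted *Retnlg* at 229 and 111 FPKM. For *Mpo* the change was 8.81 on day 12 and 7.81 on day 21, 8.31 ± 0.29 over both days (SE, limma, adjusted p = 0.0102).

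Levels of neutrophil genes differed between the uFIB libraries. The summed level of the 20 members in uFIB of day 21 was 372 FPKM, 2.17% of that in SL of the same day, against 59.7 FPKM or 0.154% on day 12. *S100a8*, *Ngp* and *Srgn*, the core protein of granule proteoglycans, reached 126, 32.5 and 73.4 FPKM there, whereas *Prg2* had 0.303 FPKM and the adult alpha globins were listed at 0. The changes of day 21 are measured against these values; with uFIB of day 12 as the reference on both days, an alternative added after the values were seen, the smaller change of *Ngp* was 10.84 instead of 7.44. All 20 members were called higher with that reference too.

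Genes of eosinophil granules rose, *Prg2* and *Epx* among the 15 largest changes. Of 12 members in the table, 8 were called higher, against 10.3% of all genes tested. Of the others, 2 were tested without a call and 2 did not pass the filter. *Prg2*, the major basic protein, had 1.04 and 0.303 FPKM in uFIB and 1032 and 2049 FPKM in SL, a change of 8.98 on day 12 and 10.62 on day 21, 9.80 ± 0.45 over both days (SE, limma, adjusted p = 0.0103). *Epx*, eosinophil peroxidase, had 0.285 and 0.0460 FPKM in uFIB and 447 and 517 FPKM in SL, a change of 8.44 on day 12 and 8.95 on day 21, 8.70 ± 0.18 over both days (SE, limma, adjusted p = 0.00767). Both genes were higher on day 21 than on day 12 in SL. *Prg3*, a second major basic protein, was listed at 0 in uFIB and had 47.3 and 58.8 FPKM in SL, and *Siglec5* (Siglec-F), the lectin that marks mouse eosinophils, had 0 and 0.0346 FPKM in uFIB and 13.2 and 16.3 FPKM in SL. Of the eosinophil-associated ribonucleases, *Ear1* had 110.4 and 131 FPKM, *Ear2,Ear3* 162 and 31.1 FPKM and *Ear6,Ear7* 40.9 and 15.5 FPKM in SL, whereas *Ear10* had 36.2 FPKM in SL of day 12 and 0 in the other 3 libraries. These genes are near-identical copies and only unique alignments were kept, so that their levels can be too low and their separate levels are uncertain. Of the members under the filter, *Ccr3*, the eotaxin receptor, had 0.717 and 0.381 FPKM and *Il5ra*, the IL5 receptor, 0.0417 and 0.0805 FPKM in SL.

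**Figure D3:**
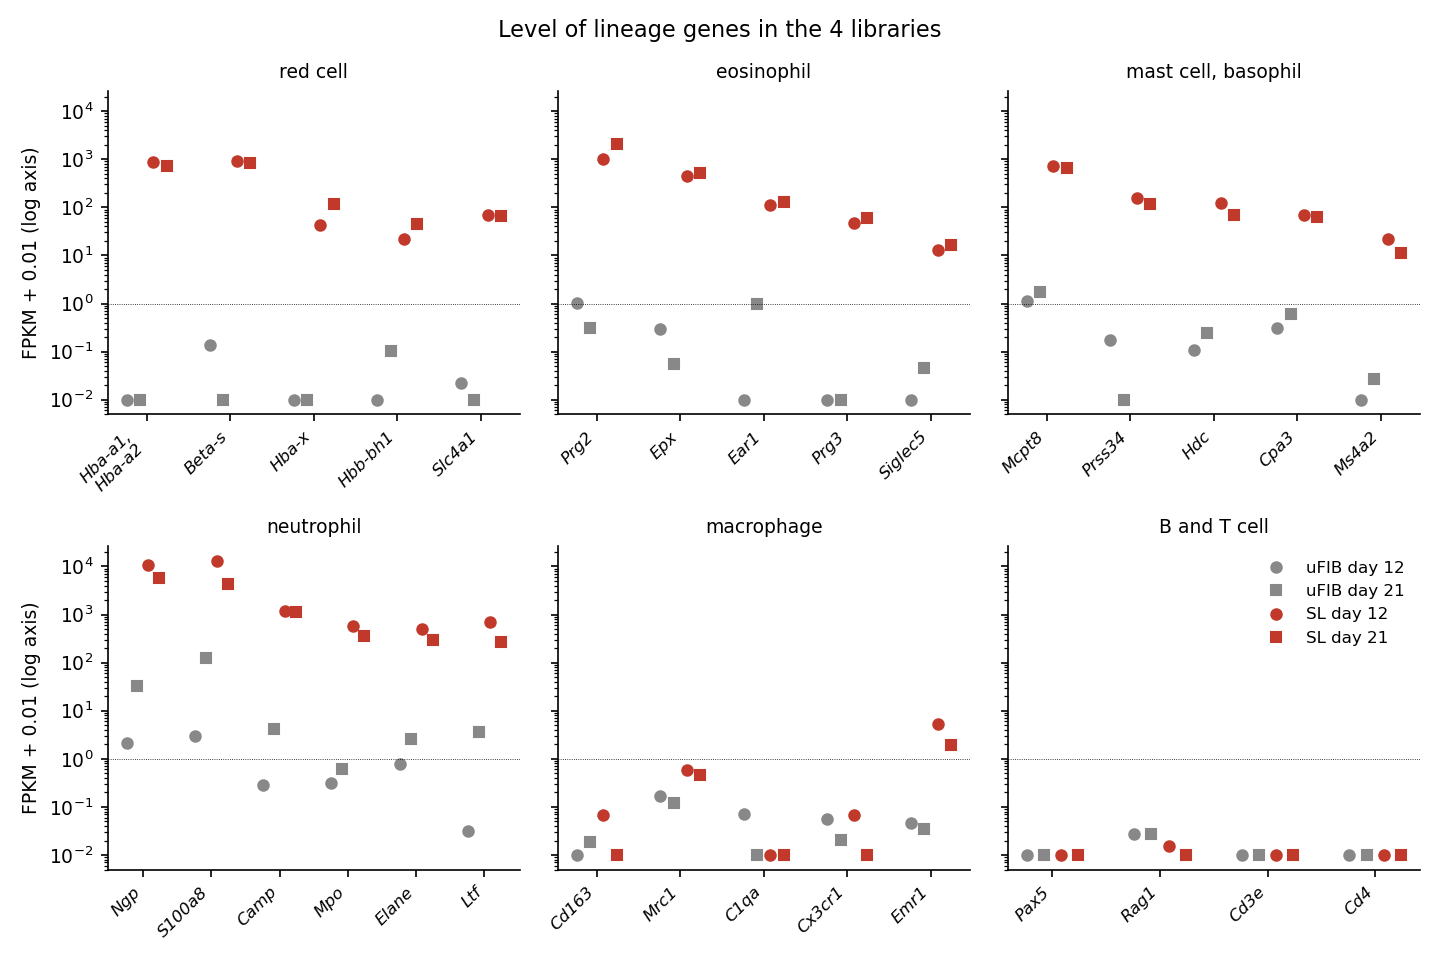
Level of 30 lineage genes as FPKM + 0.01 on a log axis in uFIB (gray) and SL (red) of day 12 (circles) and day 21 (squares); a dotted line marks 1 FPKM. Red cell, eosinophil, mast cell and neutrophil genes are above 1 FPKM in both SL libraries, most macrophage genes lie under it, and *Pax5*, *Cd3e* and *Cd4* are listed at 0 in all 4 libraries.

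Genes of basophils and mast cells rose in 19 of 26 members, against 10.3% of all genes tested. Of the others, 1 was tested without a call and 6 did not pass the filter. *Mcpt8*, a protease that marks mouse basophils, had 1.13 and 1.69 FPKM in uFIB and 736 and 663 FPKM in SL, a change of 8.44 on day 12 and 7.94 on day 21, 8.19 ± 0.18 over both days (SE, limma, adjusted p = 0.00767). *Prss34*, a further basophil protease, had 0.162 and 0 FPKM in uFIB and 159 and 117 FPKM in SL, and *Hdc*, the enzyme that makes histamine, had 0.10 and 0.228 FPKM in uFIB and 121 and 70.0 FPKM in SL. *Cpa3*, a carboxypeptidase of both cell types, had 0.306 and 0.582 FPKM in uFIB and 70.2 and 62.5 FPKM in SL. Both SL libraries were above both uFIB libraries in these 4 genes, as in 36.1% of all genes tested. All 4 were named from members called higher by the same values, so this is no separate support.

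Proteases of mature connective tissue and mucosal mast cells were present at far lower levels in SL, with *Cma1* at 4.54 and 4.14 FPKM, *Mcpt4* at 3.97 and 2.53 FPKM, *Mcpt1* at 3.53 and 2.63 FPKM and *Tpsb2* at 3.49 and 3.57 FPKM, against at most 0.139 FPKM in uFIB. *Ms4a2*, the beta chain of the IgE receptor, had 21.6 and 11.2 FPKM in SL and at most 0.0172 FPKM in uFIB, while its alpha chain *Fcer1a* stayed at 0.639 and 0.768 FPKM. The cytokine genes *Il4* and *Il13*, which basophils secrete, were listed at 0 in uFIB and had 2.71 (*Il4*) and 3.42 (*Il13*) FPKM in SL of day 12 and 3.01 and 2.70 FPKM in SL of day 21. *Kit*, the receptor that mast cells keep through life, had 0.429 and 0.423 FPKM in uFIB and 10.6 and 5.38 FPKM in SL. *Mitf*, a mast cell regulator that fibroblasts also express, did not pass the limit, with a change of -0.85 on day 12 and -0.11 on day 21, and *Mrgprb1*, a receptor of connective tissue mast cells, was listed at 0 in all 4 libraries.

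Genes of megakaryocytes and platelets rose in 16 of 25 members, with 8 under the filter, against 10.3% of all genes tested. *Itga2b* (CD41), the alpha chain of the fibrinogen receptor and an early marker of blood commitment, had 1.10 and 1.003 FPKM in uFIB and 49.7 and 53.6 FPKM in SL. *Pf4* (platelet factor 4) had 0.144 and 0.903 FPKM in uFIB and 23.6 and 27.2 FPKM in SL, and *Itgb3*, the partner of *Itga2b*, had 1.98 and 0.951 FPKM in uFIB and 28.0 and 23.7 FPKM in SL. SL was above uFIB on both days in each of them, which their call as higher requires. Among all genes tested this held for 40.6%, so it is no separate support. Genes of the platelet receptor for von Willebrand factor were lower, with *Gp9* at 3.64 and 4.62 FPKM, *Gp5* at 2.57 and 2.75 FPKM and *Gp1ba* at 2.82 and 2.81 FPKM in SL. *Gp1bb* shares its row with *Sept5* and was not called.

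The monocyte and macrophage list split. Of 30 members, 14 were called higher, against 10.3% of all genes tested. Of the others, 2 were tested without a call and 14 did not pass the filter. Those that rose included *Ly6c2* (Ly6C, of classical monocytes) with 0.460 and 11.4 FPKM in uFIB and 1716 and 855 FPKM in SL, *Tyrobp* (the adaptor DAP12) with 0.152 and 1.49 FPKM in uFIB and 309.5 and 119 FPKM in SL, the NADPH oxidase subunits *Cybb* (105 and 45.7 FPKM in SL) and *Ncf4* (122 and 55.6 FPKM), and *Fcgr3* (an IgG receptor) with 142 and 68.2 FPKM. Neutrophils use these genes as well. Genes of tissue macrophages were near 0: the complement genes *C1qa*, *C1qb* and *C1qc* had at most 0.0824 FPKM in SL, *Cd163* (the hemoglobin scavenger receptor) and *Cx3cr1* (the fractalkine receptor) at most 0.0590 FPKM, *Marco* at most 0.0196 FPKM and *Mrc1* (the mannose receptor) 0.573 and 0.457 FPKM. *Emr1* (F4/80), a marker shared by macrophages and eosinophils, had 0.0359 and 0.0251 FPKM in uFIB and 5.35 and 1.89 FPKM in SL.

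Lymphoid and antigen-presenting genes were not gained as groups. Of 17 B cell members 16 did not pass the filter, with *Pax5*, *Blk*, *Rag2* and *Dntt* listed at 0 in all 4 libraries, and the 1 member tested, *Ebf1*, fell with 47.3 and 51.7 FPKM in uFIB and 12.7 and 9.34 FPKM in SL; mesenchymal cells also express this gene. Of 24 T and NK cell members 19 did not pass and 3 were called higher, namely *Gzmb* (granzyme B, which mast cells also make, 56.3 and 26.9 FPKM in SL), *Nkg7* (a cytotoxic granule membrane protein, 31.0 and 16.6 FPKM) and *Cd28* (2.18 and 2.88 FPKM). *Cd3e*, *Cd4*, *Cd8a*, *Cd5*, *Gzma* and *Ncr1* were listed at 0 in all 4 libraries, whereas *Cd3d* had 4.32 FPKM in SL of day 12 and 0.480 FPKM in SL of day 21. Of 17 members for dendritic cells and MHC class II, 0 were called; *H2-Ab1* and *H2-Aa* had at most 1.03 FPKM in any library and *Flt3*, the receptor of dendritic cell precursors, at most 0.0505 FPKM.

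Genes shared by all leukocytes rose in 21 of 25 members, against 10.3% of all genes tested. The median change was 5.61 on day 12 and 4.45 on day 21. *Coro1a*, an actin regulator of leukocytes, had 0.196 and 0.768 FPKM in uFIB and 183 and 70.7 FPKM in SL, a change of 7.27 on day 12 and 5.34 on day 21, 6.30 ± 0.53 over both days (SE, limma, adjusted p = 0.0111). *Ptprc* (CD45) was low for a pan-leukocyte gene, with 0.0110 and 0.0997 FPKM in uFIB and 4.83 and 1.79 FPKM in SL. *Evl*, an actin elongation factor that fibroblasts express, was the member called lower, with a change of -1.17 on day 12 and -1.005 on day 21.

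Among 26 hematopoietic transcription factors, 17 were called higher, against 10.3% of all genes tested. Of the others, 1 was called lower, 6 were tested without a call and 2 did not pass the filter. *Sfpi1* (*Spi1*, PU.1), required for myeloid cells, had 0.0485 and 0.712 FPKM in uFIB and 156 and 81.6 FPKM in SL, and *Cebpe*, required for the late steps of granulocytes, had 0.0529 and 0.333 FPKM in uFIB and 143 and 88.6 FPKM in SL. *Myb*, needed by definitive progenitors, had 0.0848 and 0.297 FPKM in uFIB and 126 and 109.6 FPKM in SL, and *Gfi1b*, needed by red cells and megakaryocytes, had 0 and 0 FPKM in uFIB and 15.7 and 24.9 FPKM in SL. In SL of day 12 *Sfpi1* and *Cebpe* were higher than in SL of day 21, while *Gfi1b* and *Klf1* were lower. *Runx1*, the regulator of the step from endothelium to blood, was already present in uFIB, with 19.9 and 24.5 FPKM in uFIB and 39.6 and 31.0 FPKM in SL, and its change of 0.96 on day 12 and 0.33 on day 21 did not pass the limit or the test, at 0.64 ± 0.21 over both days (SE, limma, adjusted p = 0.0870). *Cebpa* had 60.7 and 78.8 FPKM in uFIB and 45.9 and 27.4 FPKM in SL and was not called, and *Irf8*, needed by monocytes and dendritic cells, had at most 0.687 FPKM in any library. *Mef2c* was the factor called lower, with a change of -1.11 on day 12 and -1.31 on day 21.

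Surface genes of stem and progenitor cells rose in 8 of 14 members, against 10.3% of all genes tested. Among them were *Kit*, *Itga2b*, *Cd93* (change of 3.27 on day 12 and 2.798 on day 21), *Gpr56* (change of 2.699 on day 12 and 2.68 on day 21) and *Procr*, the protein C receptor (change of 1.16 on day 12 and 1.92 on day 21). *Cd34* had 7.72 and 19.0 FPKM in uFIB and 32.3 and 61.5 FPKM in SL. *Slamf1*, a marker of hematopoietic stem cells, was listed at 0 in uFIB and had 0.942 and 0.796 FPKM in SL, under the filter, and *Ly6a* (Sca-1) had 141 and 188 FPKM in uFIB and 78.8 and 189 FPKM in SL with no call. Receptors for the cytokines of the medium changed in both directions, 5 of 11 higher and 2 lower. *Csf2rb* had 228 and 177 FPKM in SL and the IL3-specific *Csf2rb2* 115 and 77.2 FPKM, against at most 0.853 FPKM in uFIB, and *Epor* had 0.269 and 0.235 FPKM in uFIB and 6.84 and 10.4 FPKM in SL. The 2 that fell serve IL6 and IL11, which stromal cells respond to: *Il6st* (gp130) had 297 and 278 FPKM in uFIB and 109 and 89.5 FPKM in SL, and *Il11ra1* 35.6 and 44.6 FPKM in uFIB and 15.1 and 11.0 FPKM in SL.

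Of 25 endothelial members, 8 were called higher, 0 lower and 12 did not pass the filter. Among all genes tested, 10.3% were called higher. *Lyve1*, a hyaluronan receptor of lymphatic endothelium, yolk sac vessels and some macrophages, had 0.0682 and 0.0635 FPKM in uFIB and 14.5 and 65.6 FPKM in SL. *Pecam1* (CD31) had 10.5 and 6.65 FPKM and *Icam2* 7.62 and 4.52 FPKM in SL, genes that blood cells share, and *Cdh5* (VE-cadherin), a defining gene of endothelium, had 0.909 and 0.303 FPKM in uFIB and 3.10 and 3.92 FPKM in SL. *Kdr* (VEGF receptor 2) stayed at or below 0.748 FPKM in all 4 libraries, *Sox17* at or below 0.215 FPKM, and *Etv2* was listed at 0 in all 4.

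Promoters of genes that rose were read for the DNA motifs of the TAL1 and LMO2 complex. The window ran from 250 bases before to 50 bases after each RefSeq start on GRCm38.p6, on both strands. Promoters of a single chromosome and windows of incomplete length were left out, and all promoters means the rest. Of the genes called, 935 of 1238 higher and 714 of 1061 lower had an entry. GATAA, the site of GATA factors, was present in 25.4% of all 32851 promoters, in 16.3% of those of genes tested, in 20.4% of 1211 promoters of genes called higher and in 17.2% of 927 promoters of genes called lower. CTG followed by 7 to 9 bases and GATA, the spacing of the joint site of the complex, was present in 7.18% of all promoters, 4.93% of those of genes tested, 7.43% of those of genes called higher and 6.15% of those called lower. For red cell genes called higher the shares were 66.7% and 38.9% (12 and 7 of 18 promoters, from 17 of 28 genes with an entry), for basophil and mast cell genes 52.2% and 8.70% (12 and 2 of 23) and for neutrophil genes 11.1% and 0% (2 and 0 of 18). The CANNTG E-box was in 72.3% of all promoters and in 72.2% of those of the red cell genes. The joint motif can overlap GATAA and an E-box, no test was run on these shares, a match is no evidence of binding, and no match says only that these letters are not in this window.

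Shown are the 250 bases before the start of 3 red cell, 2 basophil and mast cell and 1 eosinophil gene that rose and hold the joint motif, with the joint motif, on either strand, in capitals. *Mpo*, a neutrophil gene that also rose, is shown beside them and holds neither motif. All are on the gene's own strand, 5′ to 3′; *Hbb-y* lies at chr7:103853208-103853457 (minus strand), *Klf1* at chr8:84901732-84901981 (plus), *Kel* at chr6:41704326-41704575 (minus), *Cpa3* at chr3:20242182-20242431 (minus), *Prss34* at chr17:25298144-25298393 (plus), *Prg3* at chr2:84987965-84988214 (plus) and *Mpo* at chr11:87793534-87793783 (plus).
Hbb-y: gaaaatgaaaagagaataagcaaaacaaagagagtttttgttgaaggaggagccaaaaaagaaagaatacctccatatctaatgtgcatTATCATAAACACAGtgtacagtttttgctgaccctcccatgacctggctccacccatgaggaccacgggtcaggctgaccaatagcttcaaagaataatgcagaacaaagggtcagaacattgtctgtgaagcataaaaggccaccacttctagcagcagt
Klf1: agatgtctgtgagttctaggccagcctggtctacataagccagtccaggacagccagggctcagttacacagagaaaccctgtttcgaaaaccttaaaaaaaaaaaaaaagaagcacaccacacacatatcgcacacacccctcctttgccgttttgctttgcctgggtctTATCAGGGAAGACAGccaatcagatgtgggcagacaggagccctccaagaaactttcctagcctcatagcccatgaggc
Kel: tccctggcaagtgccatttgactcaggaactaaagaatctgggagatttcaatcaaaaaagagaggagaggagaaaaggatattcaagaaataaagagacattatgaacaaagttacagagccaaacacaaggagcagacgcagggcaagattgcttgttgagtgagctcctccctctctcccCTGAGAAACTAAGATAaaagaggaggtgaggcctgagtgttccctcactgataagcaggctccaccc
Cpa3: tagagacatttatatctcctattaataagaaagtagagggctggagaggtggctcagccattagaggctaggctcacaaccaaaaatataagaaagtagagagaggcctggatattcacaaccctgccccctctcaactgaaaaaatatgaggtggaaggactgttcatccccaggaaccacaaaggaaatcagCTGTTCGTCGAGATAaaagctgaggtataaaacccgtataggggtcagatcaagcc
Prss34: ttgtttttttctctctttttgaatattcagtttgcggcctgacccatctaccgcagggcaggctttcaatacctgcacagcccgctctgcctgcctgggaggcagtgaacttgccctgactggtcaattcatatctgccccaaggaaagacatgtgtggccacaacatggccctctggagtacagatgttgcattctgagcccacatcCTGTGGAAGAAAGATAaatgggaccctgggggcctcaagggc
Prg3: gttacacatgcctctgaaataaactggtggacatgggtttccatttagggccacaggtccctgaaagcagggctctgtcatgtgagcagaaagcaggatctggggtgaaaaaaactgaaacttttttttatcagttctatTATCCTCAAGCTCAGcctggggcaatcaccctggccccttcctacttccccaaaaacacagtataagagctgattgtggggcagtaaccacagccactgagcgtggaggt
Mpo: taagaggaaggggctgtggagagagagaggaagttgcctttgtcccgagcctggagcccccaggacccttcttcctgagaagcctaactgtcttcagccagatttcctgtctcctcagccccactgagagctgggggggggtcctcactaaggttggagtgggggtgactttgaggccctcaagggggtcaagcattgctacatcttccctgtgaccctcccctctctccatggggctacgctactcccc
The first base of the joint motif lies 161 bases before the start in *Hbb-y*, 79 in *Klf1*, 67 in *Kel*, 56 in *Cpa3*, 42 in *Prss34* and 110 in *Prg3*.

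**Figure D4:**
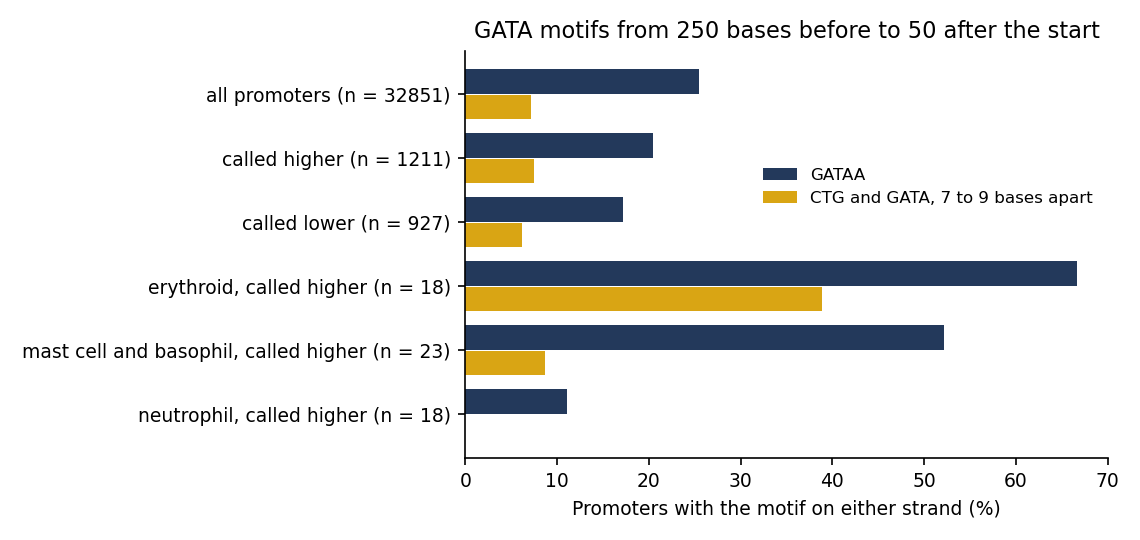
Share of promoters in percent (x axis) that hold GATAA or CTG and GATA with 7 to 9 bases between them, on either strand, for all promoters and for genes called higher or lower; n is the number of promoters. Bars of the red cell genes reach 66.7% and 38.9%, against 25.4% and 7.18% of all promoters.

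Among fibroblast functions, genes of the matrix fell broadly. Of 20 collagen chains, 15 were called lower, against 8.84% of all genes tested, and 0 higher, with a median change of -1.57 on day 12 and -1.99 on day 21, and their summed level was 9056 and 7532 FPKM in uFIB and 3169 and 2085 FPKM in SL on days 12 and 21. *Col1a1* had 2409 and 1609 FPKM in uFIB and 784 and 412 FPKM in SL, a change of -1.62 on day 12 and -1.96 on day 21, -1.79 ± 0.18 over both days (SE, limma, adjusted p = 0.0127). *Col14a1*, a chain that binds to fibril surfaces, had 36.5 and 55.6 FPKM in uFIB and 4.02 and 4.96 FPKM in SL, the largest fall by the smaller change. SL was below uFIB on both days in all 20 chains, as in 44.5% of all genes tested. For the 15 chains called lower the call itself requires this. The chains of basement membrane collagen, *Col4a1* and *Col4a2*, did not pass the limit on day 21: *Col4a1* changed by -1.06 on day 12 and -0.29 on day 21, and *Col4a2* by -1.29 and -0.41.

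Of 37 glycoproteins and proteoglycans of the matrix, 27 were called lower, against 8.84% of all genes tested, and 0 higher. Among them, *Eln* (elastin) had 89.5 and 95.5 FPKM in uFIB and 4.97 and 21.6 FPKM in SL, *Fbn1* (fibrillin 1) 153 and 213 FPKM in uFIB and 39.0 and 35.1 FPKM in SL, and *Mfap4*, which sits on elastic fibers, 509 and 249.6 FPKM in uFIB and 64.5 and 3.99 FPKM in SL. Of these, *Eln* fell further on day 12 and *Mfap4* further on day 21. *Postn* (periostin) had 699 and 379 FPKM in uFIB and 122 and 33.8 FPKM in SL, *Aspn* (asporin) 121 and 66.1 FPKM in uFIB and 16.2 and 8.23 FPKM in SL and *Thbs2* (thrombospondin 2) 582 and 372 FPKM in uFIB and 104 and 69.0 FPKM in SL. *Fn1* (fibronectin), *Dcn* (decorin) and *Thbs1* (thrombospondin 1) were lower by at least 1 on day 12 alone: *Fn1* had 1387 and 1119 FPKM in uFIB and 431 and 1072 FPKM in SL, the change of *Dcn* was -1.31 on day 12 and -0.16 on day 21, and that of *Thbs1* -1.35 and 0.12. *Ecm1* was the member with values above uFIB on both days, with a change of 1.09 on day 12 and 0.94 on day 21, short of the limit on day 21.

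Of 19 enzymes and chaperones that fold, cut and crosslink collagen, 9 were called lower, with a median change of -1.19 and -1.07, among them the procollagen C-proteinase enhancer *Pcolce* (change of -1.87 on day 12 and -2.63 on day 21), the procollagen N-proteinase *Adamts2* (change of -1.79 on day 12 and -2.59 on day 21) and the collagen chaperone *Serpinh1* (change of -1.44 on day 12 and -1.66 on day 21). The prolyl and lysyl hydroxylases *P4ha1* (change of -0.41 on day 12 and -0.20 on day 21) and *Plod1* (change of -0.10 on day 12 and -0.33 on day 21) were not called. Of 21 matrix proteases and inhibitors 11 were called lower, such as the gelatinase *Mmp2* with 519 and 533 FPKM in uFIB and 173 and 139 FPKM in SL, the membrane-bound *Mmp14* with a change of -1.61 on day 12 and -1.75 on day 21 and the bone and fibroblast cathepsin *Ctsk* with a change of -1.95 on day 12 and -3.15 on day 21. *Plau* (urokinase), which leukocytes also make, was called higher, with 13.1 and 9.66 FPKM in uFIB and 83.9 and 115 FPKM in SL.

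Surface and adhesion genes of mesenchyme fell in 12 of 23 members, against 8.84% of all genes tested. *Pdgfra*, the receptor for platelet-derived growth factor that marks fibroblasts, had 86.6 and 47.7 FPKM in uFIB and 27.2 and 8.44 FPKM in SL, *Cdh11* (cadherin 11) had 169 and 149 FPKM in uFIB and 31.7 and 20.3 FPKM in SL and *Thy1* had 249 and 175 FPKM in uFIB and 97.3 and 73.3 FPKM in SL. In *Pdgfra* and *Cdh11* SL of day 21 was the lowest of the 4 libraries. Integrin alpha 5 (*Itga5*), the fibronectin receptor, was not called, with a change of -0.24 on day 12 and 0.10 on day 21, and *Nt5e* (CD73) was called higher, with 0.873 and 1.01 FPKM in uFIB and 14.2 and 8.95 FPKM in SL.

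Mesenchymal transcription factors fell in 15 of 28 members, against 8.84% of all genes tested, and 0 rose. Of the others, 5 did not pass the filter. *Prrx1*, a homeobox factor of limb and craniofacial mesenchyme, had 115 and 63.8 FPKM in uFIB and 24.1 and 21.6 FPKM in SL, and *Twist1* had 41.7 and 43.9 FPKM in uFIB and 19.3 and 18.4 FPKM in SL. *Snai2*, an inhibitor of epithelial genes, had 25.5 and 34.7 FPKM in uFIB and 6.59 and 7.17 FPKM in SL. Each of these 3 factors kept a level above 6 FPKM in SL. Not called were *Runx2*, the osteoblast factor, with a change of -0.26 on day 12 and -0.62 on day 21, and *Tbx18*, with -0.69 and -0.16.

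Secreted signals fell in 24 of 35 members, against 8.84% of all genes tested. *Cxcl12*, the chemokine with which stroma holds blood cells in the bone marrow, had 1781 and 3067 FPKM in uFIB and 489 and 361 FPKM in SL, a change of -1.86 on day 12 and -3.08 on day 21, -2.47 ± 0.36 over both days (SE, limma, adjusted p = 0.0208). The growth factor *Igf2* changed by -1.39 on day 12 and -2.19 on day 21, and *Igf1* by -1.42 and -1.98. Of the IGF binding proteins in the list, *Igfbp5* was called lower with -2.88 and -4.14, *Igfbp3* with -2.51 and -4.24 and *Igfbp6* with -1.70 and -1.75; *Igfbp2*, *Igfbp4* and *Igfbp7* were not called. The Wnt inhibitor *Sfrp2* had 509 and 433 FPKM in uFIB and 74.1 and 10.8 FPKM in SL, and the receptor tyrosine kinase ligand *Gas6* 990.2 and 765 FPKM in uFIB and 213 and 111 FPKM in SL. *Kitl*, the ligand of KIT, was not called, with 5.87 and 9.76 FPKM in uFIB and 5.42 and 6.66 FPKM in SL. *Tgfb1* was the member called higher, with 29.2 and 23.7 FPKM in uFIB and 189.9 and 162 FPKM in SL; blood cells, platelets among them, make this cytokine.

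**Figure D5:**
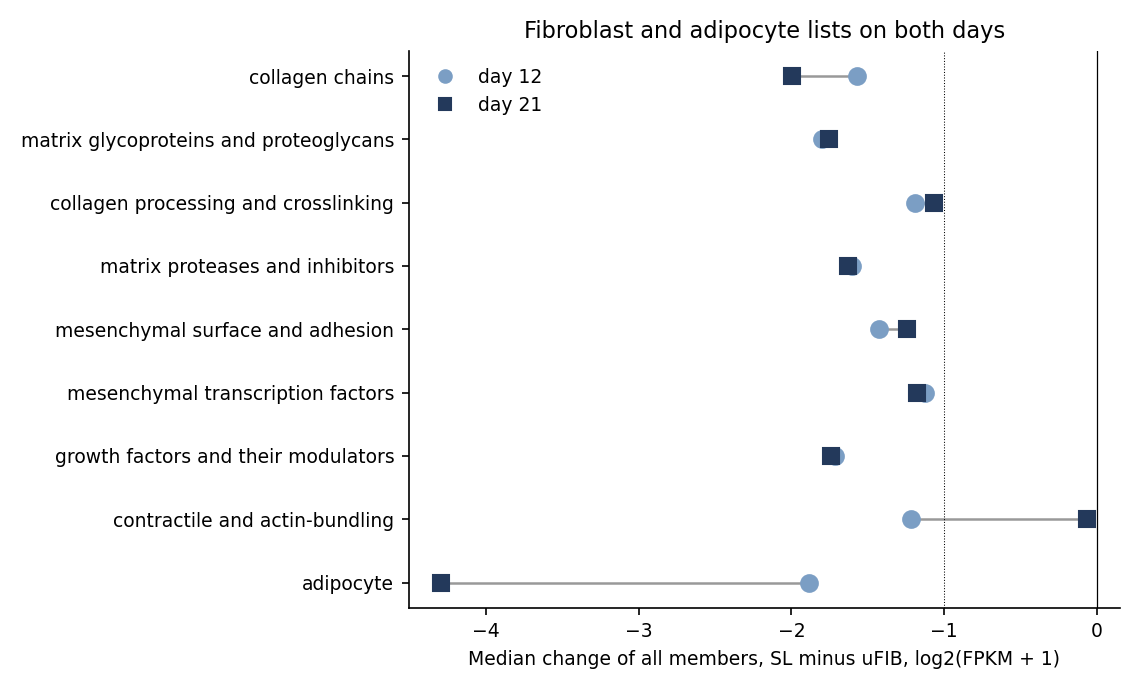
Median change over all members of 9 lists, SL minus uFIB on log2(FPKM + 1), on day 12 (circles) and day 21 (squares); a dotted line marks -1. Medians of most lists lie close together on both days, the contractile list moves from -1.22 to -0.06 and the adipocyte list from -1.89 to -4.30.

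Contractile genes differed between the days. Of 20 members only *Cnn3* (calponin 3) was called lower on both days, with a change of -1.84 on day 12 and -1.196 on day 21, although 12, with it, were lower by at least 1 on day 12, against 13.5% of all genes tested; the median change was -1.22 on day 12 and -0.06 on day 21. *Acta2* (smooth muscle actin) had 258 and 111 FPKM in uFIB and 50.1 and 93.8 FPKM in SL, *Tagln* (transgelin) had 199 and 73.2 FPKM in uFIB and 31.0 and 40.3 FPKM in SL and *Tpm2* (tropomyosin 2) had 63.0 and 31.3 FPKM in uFIB and 17.2 and 31.0 FPKM in SL. *Acta2* was lower on day 21 than on day 12 in uFIB and higher in SL. The libraries of both days also differed in Y-linked genes, so time and the cells used cannot be told apart here. For the 19 members tested, the median of day 21 minus day 12 was -0.50 in uFIB and 0.81 in SL. With uFIB of day 12 as the reference on both days 6 members were called lower. The connective tissue growth factor *Ctgf*, which tracks with tension in many cells, had 171 and 107 FPKM in uFIB and 51.3 and 201 FPKM in SL.

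The fall of adipocyte genes was larger on day 21. As above, time and the cells used cannot be told apart in such a difference between the days. Of 10 members 9 were called lower, with a median change of -1.89 on day 12 and -4.30 on day 21. *Fabp4*, the fatty acid binding protein of fat cells, had 1976 and 3283 FPKM in uFIB and 701 and 229 FPKM in SL. *Adipoq* (adiponectin) had 241 and 348 FPKM in uFIB and 45.4 and 17.8 FPKM in SL, and *Plin1* (perilipin 1, the coat of lipid droplets) had 112 and 149.6 FPKM in uFIB and 24.9 and 2.99 FPKM in SL. uFIB was at or above 100 FPKM in these genes on both days, and in SL each was lower on day 21 than on day 12. *Pparg*, the master regulator of fat cells, had 32.3 and 48.1 FPKM in uFIB and 8.71 and 4.79 FPKM in SL, and *Cebpa*, which granulocytes also need, was not called, as given above. In limma, where the spread is the difference between the days, *Fabp4*, at -2.66 ± 0.64 over both days (SE, limma, adjusted p = 0.0510), *Cidec* and *Retn* did not pass an adjusted p of 0.05.

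The 15 genes with the largest fall by the smaller change were *Dpt*, *Scg2*, *Ifi27l2a*, *Reg1*, *Smoc2*, *Itgbl1*, *Ndnf*, *Ifit3*, *Chrdl1*, *Gfra1*, *Lgr5*, *Ngfr*, *Car3*, *Ifit1* and *Cox8b*, of which 10 are in no list. *Dpt* (dermatopontin, a matrix protein that fibroblasts secrete) had 159.8 and 174 FPKM in uFIB and 10.4 and 3.65 FPKM in SL, a change of -3.82 on day 12 and -5.23 on day 21, -4.53 ± 0.40 over both days (SE, limma, adjusted p = 0.0115). *Car3*, a carbonic anhydrase of fat and muscle, had 701 and 473 FPKM in uFIB and 83.3 and 4.42 FPKM in SL, and the fall was larger on day 21. *Lgr5*, the R-spondin receptor, had 92.9 and 37.1 FPKM in uFIB and 9.11 and 2.35 FPKM in SL, and *Ndnf*, a secreted protein with fibronectin domains, had 27.8 and 45.8 FPKM in uFIB and 1.76 and 0.682 FPKM in SL.

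*Ngfr* and *Gfra1*, receptors for neurotrophins and for GDNF, and *Ifit1*, *Ifit3* and *Ifi27l2a*, genes induced by interferon, led to 2 further lists, written after these values were seen. The genes that led to a list are counted in it, so their fall was fixed by the choice. Among all genes tested 8.84% were called lower, which is no matched background for lists drawn from these values. Of 17 genes of Schwann cells and glia, 9 were lower, 0 higher and 5 under the filter; *Sox10*, the defining factor of glia from the neural crest, had 22.1 and 36.3 FPKM in uFIB and 2.44 and 5.41 FPKM in SL, *Erbb3*, the neuregulin receptor, 14.1 and 24.8 FPKM in uFIB and 1.14 and 2.14 FPKM in SL, and *Ngfr* 84.1 and 112 FPKM in uFIB and 8.30 and 10.3 FPKM in SL. Of 29 interferon-stimulated genes, 24 were lower and 0 higher, with a median change of -1.69 on day 12 and -2.10 on day 21. *Isg15*, a ubiquitin-like protein, had 45.3 and 86.3 FPKM in uFIB and 6.68 and 14.3 FPKM in SL, and *Irf7*, the factor that amplifies the response, 12.5 and 26.8 FPKM in uFIB and 3.59 and 4.13 FPKM in SL. In both genes SL was lower on each day, and uFIB of day 21 was above uFIB of day 12. Of 11 genes for MHC class I, 1 was called lower on both days, *B2m* with 1586 and 2725 FPKM in uFIB and 706 and 823 FPKM in SL, and 8, with it, were lower by at least 1 on day 21, against 12.1% of all genes tested. With uFIB of day 12 as the reference on both days the smaller change of *B2m* was -0.95, short of the limit.

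Genes of the cell cycle rose in 18 of 20 members, against 10.3% of all genes tested. *Mki67*, a marker of dividing cells, had 6.55 and 7.08 FPKM in uFIB and 53.8 and 52.0 FPKM in SL, a change of 2.86 on day 12 and 2.71 on day 21, 2.79 ± 0.12 over both days (SE, limma, adjusted p = 0.0102), and *Mcm5*, a subunit of the replicative helicase, had 4.48 and 6.19 FPKM in uFIB and 43.2 and 30.1 FPKM in SL. The members without a call were *Mcm4* and *Tyms*, with changes of 1.18 and 0.60 on day 12 and of 0.95 and 0.41 on day 21. Of 17 genes of glycolysis, a list also added after the values were seen, 11 were higher and 0 lower, led by the lactate exporter *Slc16a3* with 8.13 and 3.24 FPKM in uFIB and 72.4 and 64.5 FPKM in SL; *Gapdh*, used elsewhere as a reference gene, was among them with a change of 1.39 on day 12 and 1.23 on day 21. Of 14 reference genes 3 were called higher and 1 lower.

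Other lineages of mesoderm and epithelium did not appear as groups. Of 11 skeletal muscle genes 10 did not pass the filter and *Tnnt1* was called higher, with 5.72 and 3.59 FPKM in SL, while *Myod1*, *Myf5* and *Myog* had at most 0.0993 FPKM in any library. Of 10 cartilage genes 8 did not pass and *Sox9* was called lower, with a change of -1.17 on day 12 and -1.68 on day 21, a smaller change of -0.79 with uFIB of day 12 as the reference on both days. Of 10 epithelial genes 6 did not pass and *Cldn3* (claudin 3) was called higher, with 0.103 and 0.181 FPKM in uFIB and 1.26 and 11.5 FPKM in SL, a call that was lost (0.998) with equal upper quartiles; *Cdh1* (E-cadherin) had 0.998 and 0.299 FPKM in uFIB and 2.43 and 2.01 FPKM in SL with no call.

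The same genes were looked up in the stages of embryonic stem cell differentiation, hematopoietic progenitors (HP) and macrophages (MAC) among them, where the authors' table gives 1 FPKM value per stage, normalized apart from the fibroblasts, so that a gene was only counted as present at 1 FPKM or more. A lower value there does not show absence, since *Gapdh*, which every cell uses, was listed at 0.337 FPKM in HP and 0.171 FPKM in MAC. Of 28 red cell genes that rose in SL, 25 were present in HP and 8 in MAC. Of 20 neutrophil genes that rose 6 were present in HP and 8 in MAC, and 8 in neither, and of 19 basophil and mast cell genes 5 and 7, and 10 in neither. *Ngp* was listed at 0 in HP and had 0.0871 FPKM in MAC, and *Prg2* was listed at 0 in HP and had 29.6 FPKM in MAC. In all, 73.0% of the 1208 genes called higher with a stage value were present in HP and 71.2% in MAC, against 80.5% of all genes tested for each. Genes called lower in SL were present in 42.4% (HP) and 41.6% (MAC) of 1046 cases, and 31.4% of them were under 1 FPKM in all 5 stages, against 8.93% of genes tested.

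At the limit of 1, *Mthfd2* was the gene just inside on the higher side, with a change of 1.15 on day 12 and 1.001 on day 21, and *Pole* the gene just outside, with a change of 1.31 on day 12 and 0.999 on day 21; on the lower side *Prkd1* was just inside, with a change of -1.48 on day 12 and -1.0002 on day 21, and *Gcsh* just outside, with a change of -0.9998 on day 12 and -1.21 on day 21. Without a limit on size, 4871 genes (40.6%) were higher on both days, 5339 (44.5%) were lower, and for 1791 (14.9%) the days disagreed or a day showed no change. Changes of at least 1 in opposite directions were found for 2 genes (0.0167%), *Edn1* and *8430408G22Rik*.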

How the data were processed

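RNA-seq values were the FPKM that the authors deposited, made with TopHat and Cufflinks on mm10 per the labels (versions are not given in the sources used here). Only unique alignments were kept and duplicates were removed, as the study's methods state, which lowers genes with near-identical copies. The stage table held pooled FPKM of the authors, normalized separately, and 1 of its value columns matched no sample label and was not used. From these files the change on log2(FPKM + 1) was computed for each day, genes with a mean under 1 FPKM were left out, as were *Tal1* and *Lmo2*, and limma 3.58.1 (R 4.3.3) was fitted to the 4 libraries with the day as a block, a trend in the prior and Benjamini-Hochberg adjustment over 12001 genes. Python 3.11.15, NumPy 2.4.6, pandas 2.3.3 and matplotlib 3.10.9 were used. The calls and limma were also run on simulated libraries with the same starting levels on both days and no differences in depth. The real libraries differ in depth and in Y-linked genes, so that run checks only the computing steps.

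The comparison, its 29 gene lists and the tests were chosen with earlier results of these data known, and 5 further lists were written after the values were seen. The text names the 15 largest changes in each direction by the smaller change of both days, leading members and defining markers of each list, members near 0, the supplied factors and genes whose days oppose each other. Other members were named for their role after their values were seen. Promoters came from RefSeq (GRCm38.p6), with the exclusions given above. The printed stretch is the 250 bases before the start, and shares also cover the 50 bases after it.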

Additional observations from a re-analysis of the deposited data

Results flagged for a closer look

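Of the 12001 genes tested, 2 changed by at least 1 in opposite directions on the 2 days, and the difference between the days was not tested. *Edn1*, the precursor of the vessel-constricting peptide endothelin 1, had 7.94 and 1.45 FPKM in uFIB and 1.52 and 5.63 FPKM in SL on days 12 and 21, a change of -1.83 on day 12 and 1.44 on day 21. *8430408G22Rik* had 8.80 and 0.172 FPKM in uFIB and 1.51 and 1.54 FPKM in SL, a change of -1.97 and 1.12; with uFIB of day 12 as the reference on both days its change on day 21 was -1.95.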

How the results depend on the processing

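No paired analysis was possible because the groups compared hold 1 library each and so share fewer than 2 replicate numbers; limma set SL against uFIB within each day. A limit of 1.5-fold gave 1984 genes higher and 2093 lower on both days, one of 4-fold gave 525 and 132, no limit on size gave 4871 and 5339, and day 12 alone gave 1624 lower. Contractile members lower numbered 12 on day 12 alone and 6 with uFIB of day 12 as the reference on both days, an alternative added after the data were seen. Cartilage members lower numbered 2 on day 21 alone and 0 with that reference. Epithelial members higher numbered 2 with a pseudocount of 0.1, 0 when the upper quartiles of the libraries were made equal and 3 on day 21 alone. MHC class I members lower numbered 2 with a pseudocount of 0.1, 8 on day 21 alone and 0 with uFIB of day 12 as the reference. Of 192 genes named in the text, 0 of those called reversed; *B2m*, *Sox9* and *Mthfd2* lost their call with uFIB of day 12 as the reference and *Cldn3* and *Mthfd2* with equal upper quartiles. Other named genes moved from under the limit to past it. These numbered 7 with uFIB of day 12 as the reference, 4 with a pseudocount of 0.1 and 1 with equal upper quartiles. The cause of these shifts was not tested. The other 28 of 32 counts over lists stayed within 1.5 times under every alternative run. With 1 library for each treatment and day, the spread between cultures is unknown, and SL of day 21, at a relative depth of 0.607, is the least precise for low genes.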
